A study of Mus musculus with 3 samples.

Results

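Ribosomal protein pseudogenes are genomic copies of ribosomal protein genes, and here they were taken as the genes whose symbol begins with Rpl or Rps and contains -ps. This rule used the symbols in the deposited transcript tables and no measured value, and it found 300 of 55536 mouse genes. The 3 libraries hold polyA-selected RNA of activated regulatory T cells, taken from a male mouse of the strain Foxp3CreERT2 x Rosa26YFP aged 4 months. The labels number the libraries as technical replicates 1, 2 and 3 of biological replicate 1, so the spread between them is that of libraries and not of animals, and there was no control. The labels derive the cells from bone marrow hematopoietic cells and give no sort or gate. The strain name holds an inducible Cre at Foxp3 and a YFP reporter at Rosa26, and no agent is named in the labels. Summed over genes, replicate 1 held 10981924 expected counts, replicate 2 held 9700630 and replicate 3 held 6667391. All 8 T cell and Treg markers reached 1 TPM (an estimated transcript level per length) in every library, with Foxp3 the lowest at a mean of 36.0 TPM. Erythroid markers summed to 795 TPM in replicate 1, 5.30 in replicate 2 and 23.4 in replicate 3, and their part in the results was not tested.

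Processed pseudogenes arise when a spliced mRNA is copied into DNA and inserted elsewhere in the genome, so they lack the introns and usually the promoter of the gene they were copied from. Ribosomal protein mRNAs are among the most abundant in dividing cells, and mammalian genomes hold many such copies of them. Young copies can be letter for letter the same as the parent mRNA, and a sequencing read from a shared stretch fits every copy equally well. Programs that estimate expression divide such reads among the copies by a model, and these estimates were deposited here in more than 1 form. Near-identical copies are therefore reported throughout as uncertain.

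The parent of a pseudogene was taken as the gene whose symbol precedes -ps, and 299 of the 300 had such a gene, drawn from 61 parents. Of the 300, 287 were annotated as processed pseudogenes, 7 as transcribed processed pseudogenes and 6 as protein-coding genes, and 289 had a single exon. By this rule Rpl31 and Rps12 had most copies, 24 each, followed by Rpl21 with 15 and Rpl23a and Rps19 with 14 each. The X chromosome held 35, more than any other chromosome, and chromosome 7 held 22. The median length was 459.5 bases. The median identity to the parent transcript was 95.9% over the aligned stretch, with gap bases counted as differences.

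How little can separate a pseudogene from its parent is shown by stretches of coding sequence, given 5′ to 3′ from the GENCODE M21 transcripts of mouse genome mm10. Positions count from 1 at the A of the parent's start codon, and capitals mark the bases that differ between the parent and its copy. The first set covers positions 381 to 441 of Rps13, a small-subunit protein, and of a pair of its copies. Rps13-ps1, at chr8:87048100-87048160 on the plus strand, differed from Rps13 by T411C and A429G. Rps13-ps2, at chr7:88530458-88530518 on the minus strand, had the bases of the parent throughout.
Rps13-ps1: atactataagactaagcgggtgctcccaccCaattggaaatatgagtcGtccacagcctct
Rps13-ps2: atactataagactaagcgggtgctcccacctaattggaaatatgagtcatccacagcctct
Rps13: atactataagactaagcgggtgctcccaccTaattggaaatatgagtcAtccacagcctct

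Further sets stand for copies on which the deposited quantifications parted. Rpl3-ps1, at chrX:13202598-13202658 on the plus strand, is shown over positions 27 to 87 of Rpl3, a protein close to the peptidyl transferase centre, where it differed by C57A. Its other substitution was T786C, and its transcript covered 99.8% of the coding sequence.
Rpl3-ps1: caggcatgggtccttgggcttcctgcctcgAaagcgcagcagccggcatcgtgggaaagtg
Rpl3: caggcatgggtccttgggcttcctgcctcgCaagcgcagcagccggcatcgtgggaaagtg
Rpl23a-ps3, at chr14:34170740-34170800 on the plus strand, is shown over positions 86 to 146 of Rpl23a, a protein at the exit of the nascent chain tunnel. The change A116T was its sole substitution, and its transcript covered 99.4% of the coding sequence.
Rpl23a-ps3: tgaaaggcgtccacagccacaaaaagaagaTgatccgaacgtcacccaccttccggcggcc
Rpl23a: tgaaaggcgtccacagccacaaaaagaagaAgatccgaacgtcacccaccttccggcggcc
Rps15a-ps8, at chr4:53791359-53791419 on the minus strand, is shown as a diverged copy, over positions 38 to 98 of Rps15a, a small-subunit protein. It held 30 substitutions against the parent's coding sequence.
Rps15a-ps8: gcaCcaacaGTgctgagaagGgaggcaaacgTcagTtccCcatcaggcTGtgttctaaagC
Rps15a: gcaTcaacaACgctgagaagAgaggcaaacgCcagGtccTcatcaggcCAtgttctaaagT

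To measure such sharing, every stretch of 100 bases, the shortest fragment the labels give, was looked up in the transcripts of all genes on both strands. Of the 300 pseudogenes, 150 shared at least 1 such stretch with the parent, 144 with another pseudogene of the 300, and 147 with a gene outside both. Those further genes had 314 symbols, 286 of which begin with Gm, the prefix of predicted mouse genes. In 31 pseudogenes no 100-base stretch was their own, and in 119 every stretch was. In 13 pseudogenes the whole transcript lay inside a transcript of the parent, so that no fragment of theirs, of any length, could tell them from it.

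Expected counts assigned to the pseudogenes summed to 68129, 49272 and 46867 in replicates 1, 2 and 3. These were 0.620% (95% Wilson interval 0.616 to 0.625), 0.508% (0.504 to 0.512) and 0.703% (0.697 to 0.709) of the counts on genes, intervals that cover counting error alone. Set against the summed counts of the 61 parents they were 13.02%, 12.72% and 12.81%, so this share moved less between libraries than the share of all counts did. In bulk RNA, a gene used by fewer cells and a gene with less RNA per cell cannot be told apart. The 12 pseudogenes with most counts held 79.2%, 79.5% and 82.7% of the counts assigned to pseudogenes in replicates 1, 2 and 3.

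Of the 300 pseudogenes, 82 reached 1 TPM in all 3 libraries, or 27.3%, where 21.5% of all genes did. In the second quantification, described below, 75 of the 300 did, where 23.7% of all genes did. The tables had 61 of these pseudogenes in common, 74.4% of the 82 and 81.3% of the 75. Of the 61 parents 60 reached this level, and of 1256 other genes with -ps in their symbol 67 did, or 5.33%. At the other end, 107 pseudogenes had 0 expected counts in every library. In 177, each library stayed under 3 counts, about the 95% upper limit that counting error alone sets on a count of 0. The limit does not cover the division of reads among copies. Rpl7a-ps11, listed at 0 in replicate 3, had a posterior mean count of 74.7 there. The floor of 3 counts corresponds to 0.273, 0.309 and 0.450 CPM (counts scaled to the library's total on genes) in replicates 1, 2 and 3.

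Most of the pseudogenes with the highest levels had no sequence of their own. The 13 that lay wholly inside a parent transcript carried 71.1%, 71.6% and 71.0% of all pseudogene counts in replicates 1, 2 and 3, and they made up 11 of the 12 pseudogenes with the highest mean TPM. Rps23-ps1, at chr3:37714740-37715164 on the plus strand of mm10, is a copy of the gene for a protein of the decoding centre. It stood at 3583, 3064 and 4303 TPM, against 987, 827 and 1115 TPM for Rps23. It ranked 28 among all genes by mean TPM and lay above its parent in every library. Rps6-ps4, at chr2:75191073-75191822 on the minus strand, is a copy of the gene for the small-subunit protein phosphorylated by S6 kinases. It stood at 2884, 2540 and 3504 TPM, against 2205, 1833 and 2349 TPM for Rps6.

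Rps16-ps2 stood at 2133, 1797 and 2081 TPM, against 1083, 956 and 1261 TPM for Rps16, which encodes a small-subunit protein. Rpl15-ps3 stood at 1778, 1508 and 1786 TPM, against 857, 746 and 875 TPM for Rpl15 of the large subunit. Both pseudogenes were above their parents in every library. Rpl38-ps2 had 1457, 1209 and 1716 TPM, against 819, 761 and 986 TPM for Rpl38, a large-subunit protein whose loss in mice changes the translation of Hox mRNAs. Rpl27-ps3 had 1238, 1048 and 1449 TPM, against 456, 367 and 511 TPM for Rpl27, another large-subunit gene.

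The deposited posterior SD of the count gives the quantifier's own uncertainty, and it was wide for Rpl27-ps3, at 929 for the 2583 counts of replicate 1. Across the 82 pseudogenes with at least 10 counts in any library, the median of the largest such SD was 15.5% of the count, and it was above 25% of the count in 23 of them.

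More of the 13 followed in this order, all copies of large-subunit genes. Rpl28-ps1 averaged 867 ± 44.2 TPM (SD over 3 libraries), against 577 TPM for Rpl28. Rpl31-ps8 averaged 835 ± 173 TPM, against 396 TPM for Rpl31, and Rpl10a-ps1 averaged 737 ± 89.5 TPM, against 794 TPM for Rpl10a. Rpl36a-ps2 averaged 702 ± 110 TPM, against 515 TPM for Rpl36a. In all, 9 of the 13 had a higher mean TPM than their parent in the alignment-based table, and all 13 did in the second quantification. Outside the 13, the sole pseudogene with a mean TPM above its parent's in the alignment-based table was Rps13-ps1. TPM divides by length, and expected counts gave another order in the Rpl38 and Rpl36a families. Rpl38 had 1269, 1008 and 997 counts, against 638, 470 and 537 on its pseudogenes together. Rpl36a had 1411, 1105 and 979.5, against 925, 737 and 758.5. In the families of the rest of the 9, the pseudogenes together held more counts than the parent in every library.

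**Figure D1:**
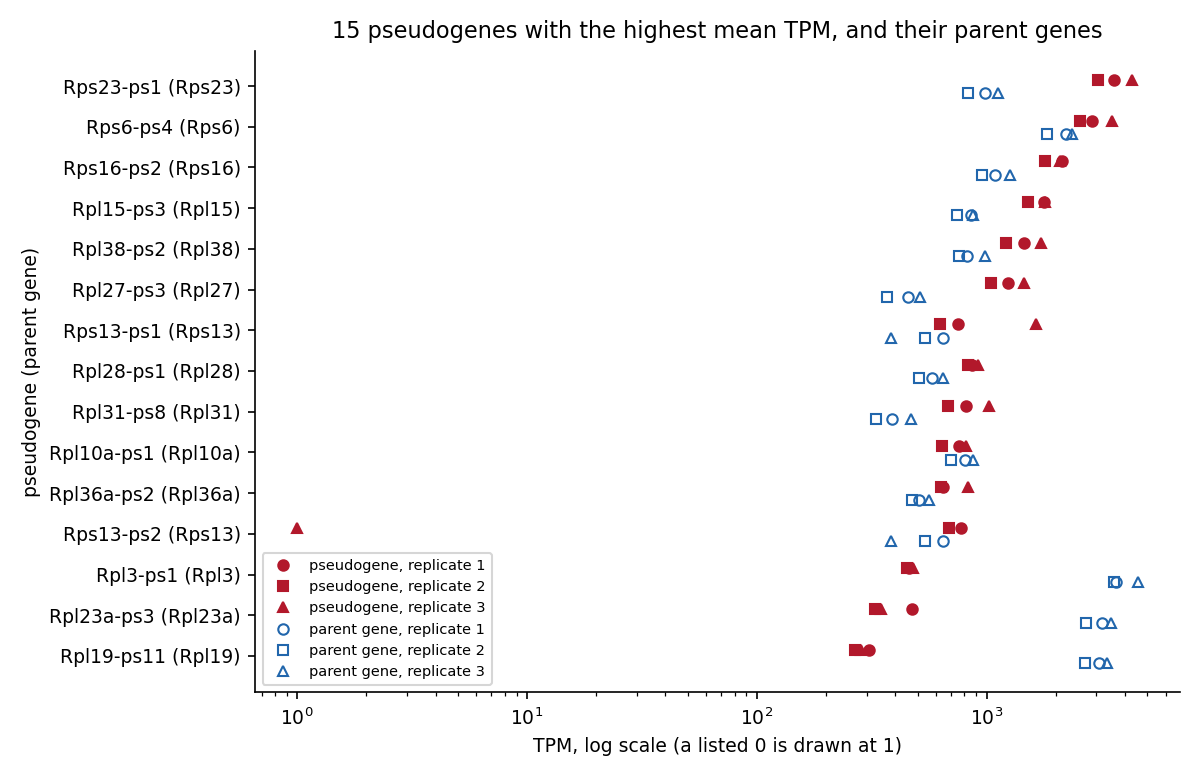
TPM in each of the 3 libraries (log axis) for the 15 pseudogenes with the highest mean TPM, in filled red, and for their parent genes, in open blue, where circles, squares and triangles stand for replicates 1, 2 and 3. Rps23-ps1 lies above its parent in every library, Rps13-ps2 is listed at 0 in replicate 3 and is drawn at 1, and Rpl3-ps1, Rpl23a-ps3 and Rpl19-ps11 lie below their parents.

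The lowest 3 of the 15 were different in kind, since each held 1 or 2 mismatches and lay below its parent. Rpl3-ps1 stood at 458, 450 and 478 TPM, against 3642, 3585 and 4542 TPM for Rpl3. Rpl23a-ps3 stood at 474, 328 and 347 TPM, against 3168, 2692 and 3465 TPM for Rpl23a. Rpl19-ps11, a copy of a large-subunit gene, stood at 307, 268 and 283 TPM, against 3096, 2691 and 3345 TPM for Rpl19. Their mean levels were 11.8%, 12.3% and 9.40% of those of Rpl3, Rpl23a and Rpl19.

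The Rps13 copies stood apart in how they moved between libraries. Rps13-ps1 had 2426, 1685 and 3319 expected counts in replicates 1, 2 and 3, or 754, 625 and 1639 TPM. Rps13-ps2 had 1910, 1422 and 0 counts, or 777, 687 and 0 TPM. Rps13 itself had 2468, 1775 and 993 counts, or 645, 540 and 384 TPM. Replicate 3 was thus the highest library for Rps13-ps1 and the lowest for Rps13-ps2 and for the parent.

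Scaled to the library totals, Rps13-ps1 was 2.25-fold higher in replicate 3 than in replicate 1 (exact 95% counting interval 2.14 to 2.38). With the listed 0 of replicate 3 replaced by 3 counts, Rps13-ps2 was 387-fold higher in replicate 1. This is no lower bound where a model divides the reads among copies. Its deposited posterior mean counts were 1909, 1410 and 8.88. Summed over Rps13 and its 7 pseudogenes, the family had 622, 507 and 651 CPM, a range of 1.29-fold. The second quantification put Rps13-ps1 at 207, 163 and 562 CPM and Rps13-ps2 at 406, 311 and 113, with Rps13 at 169, 141 and 65.0. Replicate 3 thus stood apart in the same direction in both quantifications, while the second did not list Rps13-ps2 at 0.

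**Figure D2:**
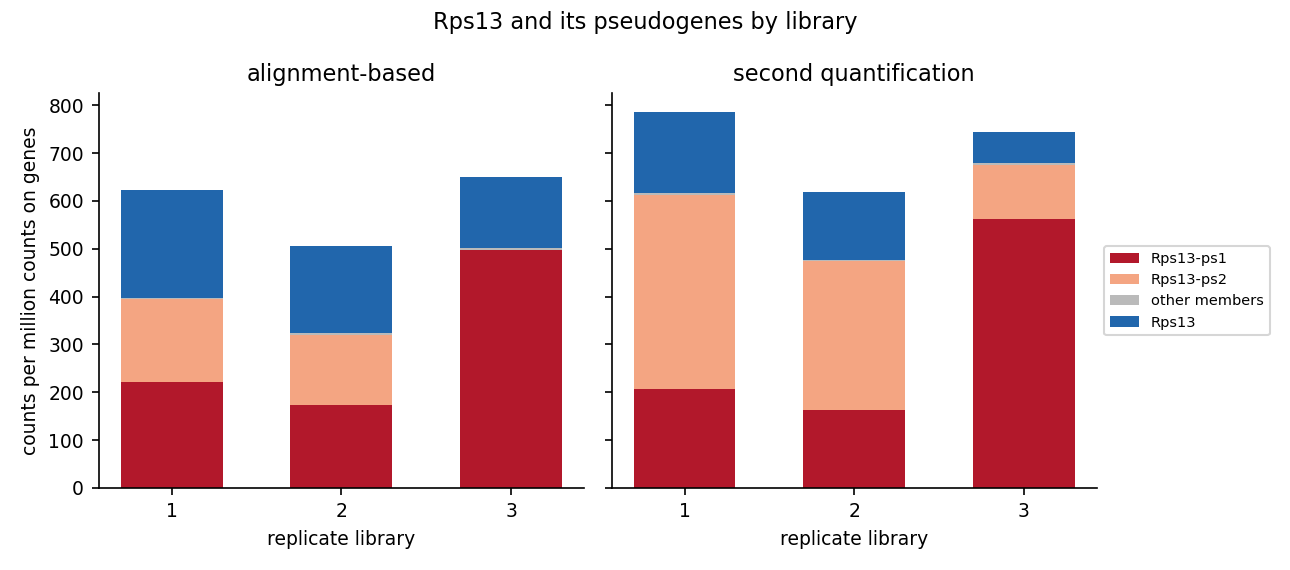
CPM for Rps13-ps1, Rps13-ps2, the other 5 pseudogenes of the family and Rps13, stacked for each replicate library in the alignment-based quantification (left) and the second quantification (right). The stacks differ less between libraries than their parts do, and in replicate 3 Rps13-ps1 takes most of the family, 498 of 651 CPM in the alignment-based quantification.

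The same libraries were quantified a second time straight from the read files, and the pseudogenes differed between the results more often than other genes in one direction and also in the other. The second quantification gave the pseudogenes 134280, 88123 and 81657 counts, or 0.873%, 0.674% and 0.887% of its own totals of 15376856, 13080676 and 9205768. With 1 count added to both, 21 of 92 pseudogenes with a mean of at least 10 counts in either table were more than 2-fold higher in the alignment-based one, or 22.8%, where 1.05% of all 17286 genes compared were. Another 37 were more than 2-fold lower, or 40.2%, where 27.2% of all genes were, and 34 lay within 2-fold. Both tables come from the same reads, so these shares describe the methods and carry no test. The median log2 ratio was -0.78 over the 92 pseudogenes, -0.67 over 60 parents and -0.44 over all genes. Over 107 other genes with -ps in their symbol it was -0.80, so the median was not particular to ribosomal protein pseudogenes. With both tables scaled to their totals the median of all genes was 0.01 and that of the pseudogenes -0.33, with 26 pseudogenes more than 2-fold higher and 29 more than 2-fold lower. These were 28.3% and 31.5% of the pseudogenes compared, where 1.27% and 22.1% of all genes were.

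**Figure D3:**
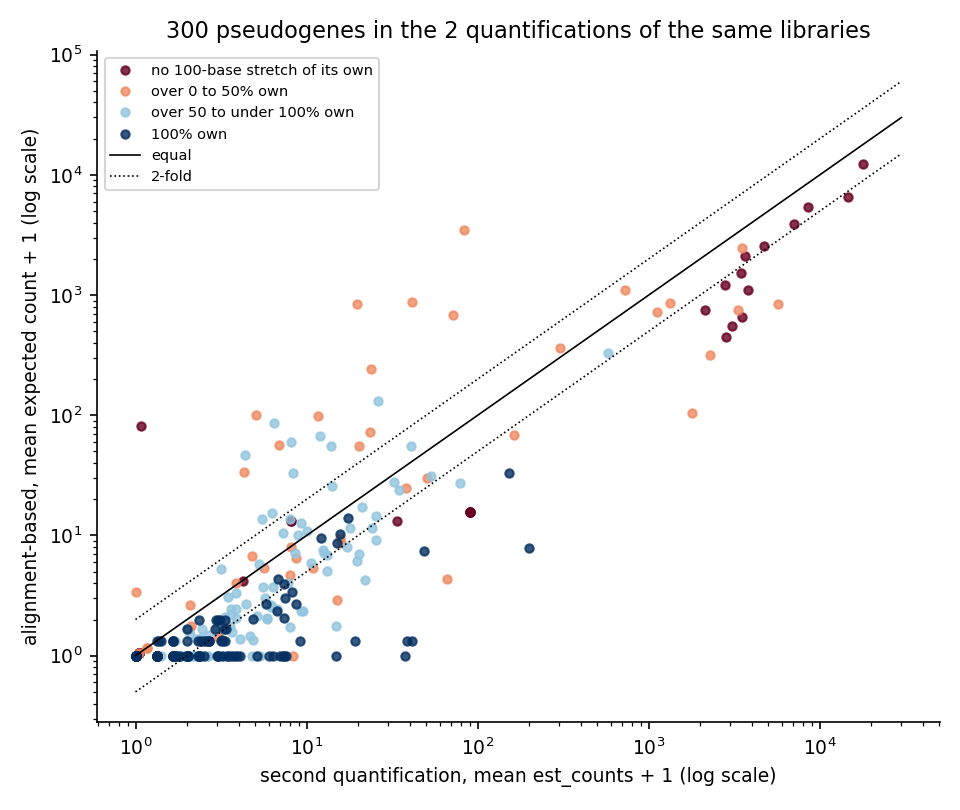
Mean expected count plus 1 in the alignment-based table (vertical, log axis) against mean estimated count plus 1 in the second quantification (horizontal, log axis) for the 300 pseudogenes, coloured by the share of their 100-base stretches found in no other gene. Points above the upper dotted line, 21 among those with a mean of at least 10 counts, are more than 2-fold higher in the alignment-based table, and 37 lie below the lower one.

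Copies with 1 or 2 mismatches made up the 4 largest gaps in favour of the alignment-based table. Rpl3-ps1 had 4227, 3429 and 2707 expected counts in replicates 1, 2 and 3, against 118, 104 and 23.6 in the second quantification, a log2 ratio of 5.38. Its parent was high in both, at 38355, 31109 and 29222 counts in the alignment-based table and 50833, 40312 and 37384 in the second. Rpl23a-ps3 had 1228, 715 and 572 counts, against 32.9, 23.0 and 0 in the second quantification, a log2 ratio of 5.42. Rpl19-ps11 had 1132, 826 and 655 counts, against 85.6, 17.4 and 18.3, a log2 ratio of 4.40.

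For Rpl3-ps1 5.22% of the 100-base stretches were found in no other gene, for Rpl23a-ps3 26.8% and for Rpl19-ps11 20.3%. The largest gap of all was that of Rpl7a-ps11, a copy of a large-subunit gene with A186G and A747C against Rpl7a, which had no stretch of its own. It had 242, 1.24 and 0 expected counts in replicates 1, 2 and 3, with posterior SDs of 85.2, 65.2 and 38.0, and under 1 count in each library of the second quantification. The posterior mean counts deposited in the same table were 139, 117.5 and 74.7, so the gap between libraries was not seen in them.

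In the other direction the 4 largest gaps belonged to diverged or short copies. Rpl28-ps2 was listed at 0 in all 3 libraries of the alignment-based table, against 27.1, 44.8 and 37.5 counts in the second quantification. It was 68.1% identical to Rpl28 over its aligned stretch with gap bases counted as differences, and held 145 gap bases and 32 mismatches. Rps19-ps11 and Rps19-ps10, copies of the small-subunit gene that is mutated in many patients with Diamond-Blackfan anaemia, each had 1, 0 and 0 expected counts. In the second quantification Rps19-ps11 had 62.7, 37.7 and 20.03 counts and Rps19-ps10 had 53.7, 39.2 and 19.4.

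Rpl39-ps had 8.22, 5.86 and 6.33 expected counts, against 213, 203 and 184 in the second quantification. Its transcript of 151 bases held 1 mismatch to Rpl39, which encodes a small protein lining the exit tunnel. Per length its few counts came to 73.8, 59.8 and 75.0 TPM, with deposited intervals reaching down to 13.9, 10.9 and 11.7 TPM.

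Sorting the pseudogenes by how much sequence was their own ordered their levels. The 31 with no 100-base stretch of their own had a median of 12.6 TPM and held 71.6% of all pseudogene counts, or 77.4% in the second quantification. The 49 with up to 50% of stretches their own had a median of 2.96 TPM and held 25.9%. The 101 between 50% and 100% had a median of 0.65 TPM and held 2.26%.

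The 119 whose every stretch was their own held 0.212% of the counts, or 0.784% in the second quantification, and 72 of them had 0 expected counts in every library. Of these 119, 8 reached 1 TPM in all libraries in the alignment-based table and 17 did in the second, and 7 did in both. None of the 12 of them with enough counts to compare was more than 2-fold higher in the alignment-based table, and 8 were more than 2-fold lower. Among the 27 compared with up to 50% own stretches, 11 were more than 2-fold higher and 7 more than 2-fold lower.

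**Figure D4:**
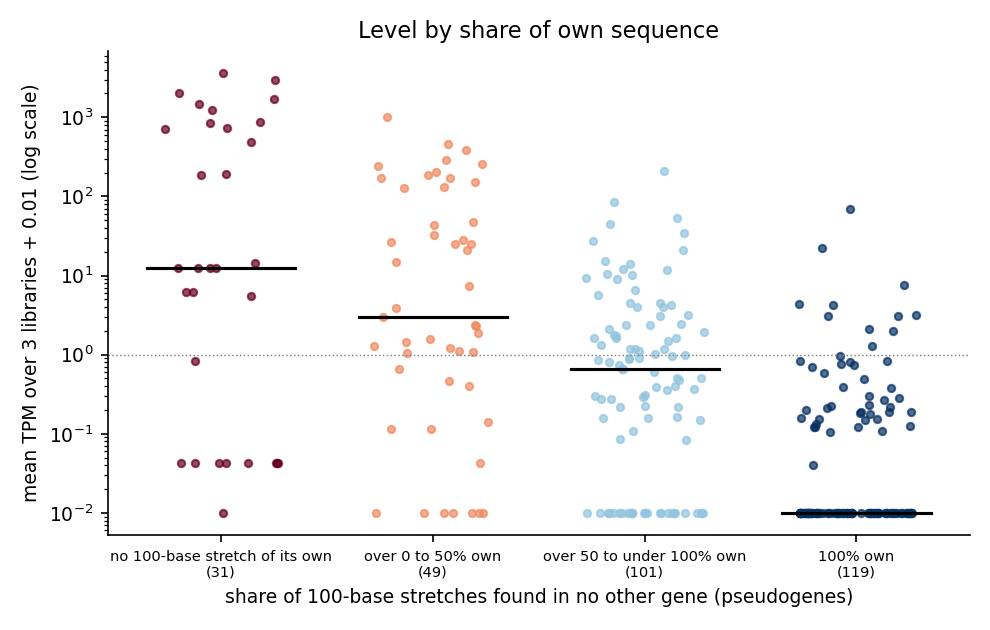
Mean TPM plus 0.01 over the 3 libraries (log axis) for each pseudogene, grouped by the share of its 100-base stretches found in no other gene, with the number of pseudogenes in brackets, black bars at the medians and a dotted line at 1 TPM. The medians run downward from 12.6 TPM with no own stretch to 2.96, 0.65 and 0 TPM.

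A reading frame for exactly the parent's protein went with the same order. In 30 of 298 pseudogenes the longest frame encoded exactly the protein of the parent, and 23 of these reached 1 TPM in every library, with a median of 141 TPM. Among the other 268, 59 did so and the median was 0.148 TPM. These others include copies whose frame has the parent's full length but another residue, such as Rpl19-ps11 with 196 residues. Copies that encode the parent's exact protein also share most bases with it, and the parts of frame and of shared sequence in these levels cannot be told apart.

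With at least 90% of their stretches their own, 12 pseudogenes still reached 1 TPM in every library, and all of them but Rps15a-ps8 had under 20 expected counts in every library. Rps15a-ps8 was among the highest of these, at 30.1, 22.1 and 43.4 expected counts, or 16.1, 13.9 and 35.9 TPM. The second quantification gave it 186, 95.3 and 173 counts, and its deposited TPM intervals began at 9.05, 7.15 and 20.02 TPM. Replicate 3 was 2.37-fold above replicate 1 for Rps15a-ps8 (exact 95% counting interval 1.45 to 3.90), while Rps15a itself was lowest in counts in replicate 3, at 4794, 3170 and 1706, though not in TPM, at 1240, 929 and 1066.

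Rps15a-ps4, a transcribed processed pseudogene, likewise had its highest count in replicate 3, at 21.1, 22.5 and 35.4. It had 86.1% of its stretches to itself. Rpl22-ps1 and Rps2-ps9, named after their values were seen, were among the 12. Rpl22-ps1 had 4.06, 8.21 and 6.96 expected counts, against 51.7, 46.7 and 44.7 in the second quantification. Rps2-ps9 had 17.1, 15.1 and 7.03 counts, against 20.6, 20.7 and 8.27 in the second.

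Inside another gene on the same strand lay 33 pseudogenes, and the host's level is given beside each named here, with its part in the pseudogene's level not tested. The sources used here name no strand setting, so reads of a gene on the other strand cannot be told apart either. Rpl36a-ps2 lay in Ddah1, and Rpl10-ps1 in Pax6os1, and both hosts were listed at 0 in all 3 libraries. Rpl19-ps11 overlapped an exon of Gm27288, which was also listed at 0 in all 3 libraries. Rpl10-ps6, a copy of Rpl10, which encodes a protein that joins the large subunit late, lay outside the exons of Ide, whose mean was 52.4 TPM. It had 13.2, 36.8 and 22.3 expected counts in replicates 1, 2 and 3, and 17.5% of its 100-base stretches were its own. Rpl18-ps1, named after its values were seen, lay outside the exons of Ctla4, the inhibitory receptor of regulatory T cells, at a mean of 9.07 TPM, against 351 TPM for Ctla4.

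The parents with most copies by symbol differed in how much of the family's counts went to pseudogenes. Families here hold the parent and its -ps symbols alone, so predicted genes that share stretches with them are in neither the copies nor the shares. Of the 24 copies of Rpl31, a large-subunit gene, 1 reached 1 TPM in all libraries, Rpl31-ps8, and pseudogenes took 55.1% of the counts of the family. The second quantification gave them 62.1%. Of the 24 copies of Rps12, which encodes a small-subunit protein, again 1 reached that level, Rps12-ps3, which lay inside a parent transcript. Rps12-ps3 had 673, 382 and 278 counts, against 3299, 2659 and 2505 in the second quantification, and Rps12 had 2248, 1892 and 1665, against 651, 408 and 413. The share of pseudogenes in the Rps12 family was therefore 18.9% in the alignment-based table and 85.3% in the second.

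The 15 copies of Rpl21, a large-subunit gene, took 0.378% of their family and 0.711% in the second quantification. One of them, Rpl21-ps8, reached 1 TPM in all libraries, at 7.24, 3.07 and 9.26 TPM. The 14 copies of Rpl23a, Rpl23a-ps3 among them, took 8.90% and 0.267% in the second. The 14 copies of Rps19 took 1.53% and 0.594%, with 5 of them at 1 TPM or more in every library and Rps19 itself at 9354, 8220 and 10486 TPM.

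**Figure D5:**
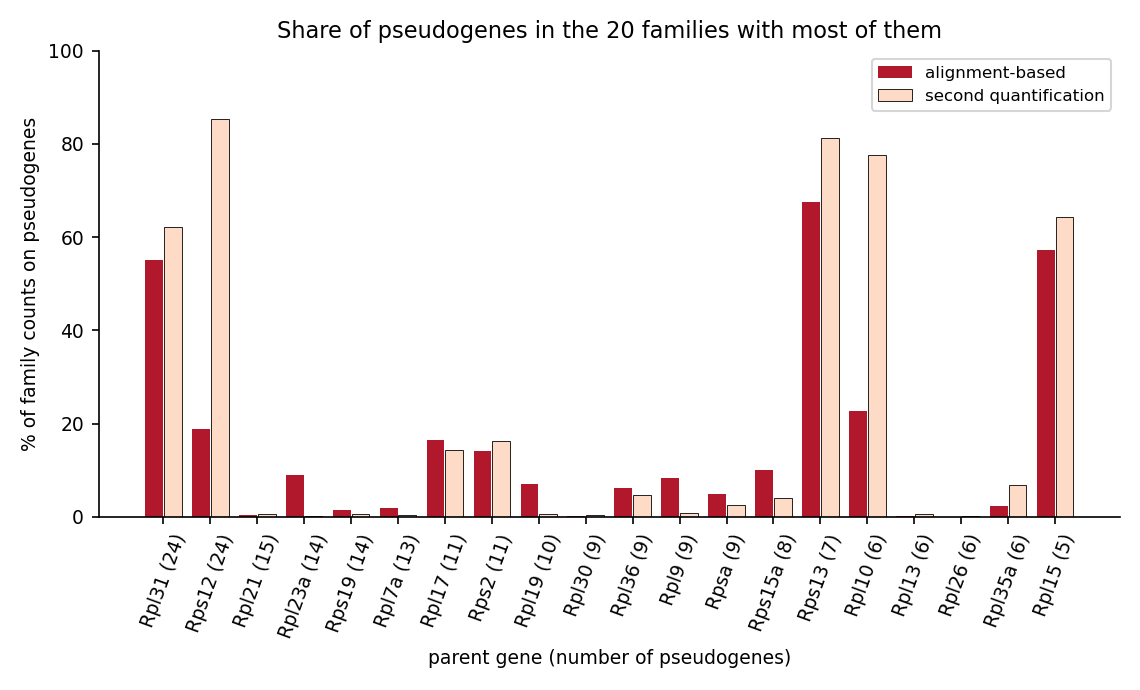
Percent of the counts of each family (parent gene plus pseudogenes, 3 libraries summed) that fell on pseudogenes, for the 20 parents with most pseudogenes, in the alignment-based table (dark bars) and in the second quantification (pale bars). The largest gap between the bars is at Rps12, 18.9% against 85.3%, and the Rpl21 bars are both under 1%.

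Between libraries, each gene's counts were set against sampling noise with a chi-square test, adjusted by the Benjamini-Hochberg method over all 12997 genes with a mean of at least 10 counts. Of the 300 pseudogenes 69 had enough counts, and 41 of these varied at an adjusted p under 0.05, or 59.4%, where 65.3% of all genes did. The share was near that of all genes, and the libraries differed beyond sampling noise in most genes. Of the 41, 35 also varied in the second quantification, in which 54 of 79 pseudogenes and 60.4% of all genes did.

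With the trended dispersion of edgeR added, 1.32% of all genes varied and 4 pseudogenes did. The adjusted p of this chi-square test was 5.2e-05 for Rps13-ps2, 0.0019 for Rps13-ps1, 7.4e-06 for Rpl7a-ps11 and 0.0016 for Rpl17-ps5. The test leaves out the quantifier's own uncertainty, and the posterior mean counts of Rpl7a-ps11 were 139, 117.5 and 74.7 in replicates 1, 2 and 3. Rpl17-ps5, a copy of a large-subunit gene, had 6.14, 0 and 30.8 counts in replicates 1, 2 and 3. It was 14.9-fold higher in replicate 3 than in replicate 2 with that 0 replaced by 3 counts, again no lower bound. It had no 100-base stretch of its own, and its posterior mean counts were 11.5, 6.18 and 32.7, with posterior SDs of 7.40, 5.67 and 16.3 counts. Adding the posterior SD to the sampling noise instead left 23 of the 69 pseudogenes varying, or 33.3%, where 62.8% of all genes varied. Rpl17-ps5 then missed the threshold at an adjusted p of 0.055 in this chi-square test.

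Each parent was also summed with its pseudogenes. The median range between libraries was 1.38-fold over 60 families with enough counts, against 1.55-fold over the 69 pseudogenes taken singly. Most families held far more counts than a single pseudogene, and counting error widens a range at low counts. The part of summing in this difference was not tested. All 60 families varied beyond sampling noise, where 65.4% of all genes and families did. With the trended dispersion 1 did, where 1.28% of all did: the family of Rpl5, a protein of the 5S ribonucleoprotein particle, at 41.9, 39.97 and 95.4 CPM. Between the quantifications, the median log2 ratio of the summed families was -0.70.

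A further deposited table, of whole-number counts on the older annotation M4, held 20 of the pseudogenes and gave different levels again. Rpl27-ps3 had 4, 6 and 5 counts there, and Rps12-ps3 had 10, 1 and 4, both copies inside a parent transcript. Rpl27 had 3754, 2884 and 3173 counts and Rps12 had 3846, 2944 and 2961. Rpl23a-ps3 had 204, 157 and 118 counts in this table, between its 1228, 715 and 572 in the alignment-based table and its 32.9, 23.0 and 0 in the second quantification. Rps18-ps3, a copy of a small-subunit gene named after its values were seen, went the other way, with 298, 248 and 255 counts on M4, against 65.1, 49.99 and 53.3 in the alignment-based table and 12.8, 4.93 and 0 in the second.

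A few symbols did not match the sequence behind them. Rpl36a-ps3 was 87.5% identical to Rpl36a and 99.7% to Rpl36al, another large-subunit gene. Rpl13-ps1 matched Rpl13 on the opposite strand. In 3 pseudogenes, Rpl17-ps11, Rps7-ps2 and Rpl48-ps1, no ribosomal protein gene covered more than 5.62% of the transcript. The ratios to a parent given above use the symbol in every case.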

How the data were processed

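The authors deposited, per library, a gene table of expected counts, TPM and other estimates (posterior SDs and TPM intervals) made from transcriptome alignments on mm10 and annotation M21. They also deposited a transcript table of estimated counts and TPM made straight from the reads, and a table of whole-number counts on M4. No source used here names the programs, and the column names are those that RSEM and kallisto write, per the file headers. Spike-in and numeric entries were left out. Transcript estimates were summed per gene. Expected counts were rounded for the chi-square test (2 degrees of freedom) on edgeR 4.0.16 TMM library sizes, which was tested on simulated data. DESeq2 1.42.0 gave alternative size factors. Sequences were aligned with Biopython 1.88 (match 2, mismatch -3, gap -5 and -2). Named genes were the 15 highest pseudogenes by mean TPM, the 8 with the largest log2 ratio between quantifications, the 8 varying ones with the widest range, the 5 parents with most pseudogenes, and the parents of those named. The pseudogenes and lists were chosen with earlier results of these data known. Markers of other cells were detected in 4 of 5 B cell, 2 of 5 erythroid, 2 of 5 myeloid and 3 of 4 plasma cell genes, and 82 of 85 ribosomal protein genes reached 1 TPM.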

Additional observations from a re-analysis of the deposited data

How the results depend on the processing

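The count of pseudogenes at 1 TPM or more in all libraries, 82, was 75 in the second quantification, 91 at 0.5 TPM, 108 by mean TPM, 108 by posterior mean TPM, and 88 to 90 with a replicate left out. It was 52 when the lower bound of the deposited interval had to reach 1 TPM and 12 among pseudogenes with at least 90% own stretches, alternatives chosen after seeing the data. The mean share of counts on pseudogenes, 0.610%, was 0.811% in the second quantification and 0.564% to 0.662% with a replicate left out. The share of the parents' counts, 12.9%, was 17.8% by TPM, 15.7% in the second quantification and 12.8% to 12.9% with a replicate left out. The median log2 ratio of -0.78 was -0.65 with 5 counts added, -0.33 after scaling to totals and -0.81 to -0.74 with a replicate left out. The 41 varying pseudogenes of 69 became 4 with the trended dispersion and 23 with posterior SDs, where 65.3%, 1.32% and 62.8% of all genes varied. In the second quantification 54 of 79 varied, where 60.4% of all genes did. The count was 51 without the count minimum, 41 with DESeq2 size factors and 29 to 34 with a replicate left out. No share over all genes was taken in those settings, so these counts are not read as results about the pseudogenes. Summing families, also chosen after seeing the data, gave 60 varying families, where 65.4% of all genes and families varied. Of 25 named pseudogenes, the mean TPM moved by more than 1 SD in 16 under the second quantification, 7 higher and 9 lower, in 14 with posterior means, and in 0 with a replicate left out. No paired analysis was possible because all 3 libraries form 1 group. Depth and shared sequence limit the low values: 69 of 300 pseudogenes had enough counts to test.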
